A study of Mus musculus with 12 samples.

Results

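The Hox genes are the members described here, taken as every row of the table whose name is Hoxa, Hoxb, Hoxc or Hoxd followed by a number. This rule found 39 of the 26190 genes, with 11 in cluster A, 10 in cluster B, 9 in cluster C and 9 in cluster D. By paralog number, 8 members were anterior (1 to 3), 15 central (4 to 8) and 16 posterior (9 to 13). Long noncoding RNAs and microRNAs of the clusters were not members.

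The study made heart organoids (HOs) from mouse embryonic stem cells (ESCs) and set them beside embryonic hearts. RNA was sequenced from 12 libraries, 3 in each of 4 groups, namely atria and ventricles cut from embryonic hearts at stage E11.5 (E11.5H), and the atrium-like part and the ventricle-like part cut from HOs at culture day 13. The labels give C57BL/6 as the strain of every sample, and no group carried a gene deletion. Apart from the additions to the HO culture named next, no group received a drug. According to the methods, HOs grew from embryoid bodies on a laminin and entactin gel with FGF4, with BMP4, BIO (an activator of Wnt signalling) and LIF added from day 9. Those methods name ESC lines of C57BL/6 and of a C57BL/6 and JF1 cross, and the labels do not say which line gave each HO sample. The methods name biological triplicates for the dissected HOs, and no label ties a replicate to an animal or a culture. The parts were separated by hand, so each library was a mixture of the cell types of that part.

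Hox genes encode transcription factors that bind DNA through a homeodomain and give cells their position along the head to tail axis. In mammals they lie in 4 clusters, and genes at the anterior end of a cluster are switched on earlier and closer to the head than genes at the posterior end. Retinoic acid activates anterior members, and progenitors exposed to it in the posterior second heart field contribute to the atria and the venous pole, whereas posterior members mark the lumbar trunk, the hindgut, the urogenital tract and the limbs.

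On GRCm38/mm10, cluster A lies on chromosome 6, on the minus strand. Cluster B occupied chromosome 11 from 96194316 to 96368253, cluster C chromosome 15 from 102921131 to 103036852 and cluster D chromosome 2 from 74668225 to 74765142, each on the plus strand.

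The homeobox is the part of each gene that encodes the homeodomain. It was taken here as a window of 180 bases placed by a conserved stretch of the protein, and was found in all 39 members. The homeoboxes of Hoxa5, Hoxa4 and Hoxc4 are shown because these genes separated the atria from the other groups, and because the likeness of paralogs bears on how reads can be assigned. They are read from the GENCODE M21 transcripts (GRCm38), in the last exon of each gene (exon 2 of 2), with capitals in Hoxc4 for each base that differs from Hoxa4.
Hoxa5, chr6:52202632-52202811, minus strand: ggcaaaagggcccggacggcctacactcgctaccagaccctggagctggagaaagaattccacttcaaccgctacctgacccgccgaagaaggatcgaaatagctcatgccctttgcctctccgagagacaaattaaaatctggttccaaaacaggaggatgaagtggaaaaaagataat
Hoxa4, chr6:52190483-52190662, minus strand: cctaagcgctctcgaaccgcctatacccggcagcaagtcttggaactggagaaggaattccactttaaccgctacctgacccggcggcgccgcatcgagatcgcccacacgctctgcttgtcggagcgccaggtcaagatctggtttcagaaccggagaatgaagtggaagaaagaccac
Hoxc4, chr15:103035663-103035842, plus strand: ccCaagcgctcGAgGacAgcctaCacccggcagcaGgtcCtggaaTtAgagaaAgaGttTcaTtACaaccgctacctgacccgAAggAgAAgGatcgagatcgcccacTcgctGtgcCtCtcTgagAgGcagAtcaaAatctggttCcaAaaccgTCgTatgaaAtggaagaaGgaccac
Hoxa4 and Hoxc4 shared 142 of 180 homeobox bases (78.9%), and the longest identical stretch over their whole transcripts was 17 bases. Among 737 pairs of members whose rows do not overlap, the longest identical stretch was 52 bases (Hoxa6 and Hoxb4), and 2 pairs reached 50 bases. Rows that overlap on the genome are also uncertain. The row of Hoxa3 spans Hoxa4, Hoxa5 and Hoxa6 on the same strand, that of Hoxd3 overlaps Hoxd4, and antisense rows overlap Hoxa5 (Hoxaas3), Hoxa11 (Hoxa11os), Hoxb2 and Hoxb3 (Hoxb3os) and Hoxb5 (Hoxb5os). Whether the counting used strand is not given in the sources used here.

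Levels are FPKM as the authors deposited them, fragments scaled to transcript length and library size, so that genes can be compared per length. A gene was called on where its FPKM was at least 1, and detected where a library held at least 10 fragments. The libraries held between 23971258 and 30540993 fragments. Over all genes, log2 values correlated between replicates at 0.967 to 0.971 in atria and 0.971 to 0.976 in ventricles, against 0.849 to 0.914 for the atrium-like and 0.778 to 0.888 for the ventricle-like part (Pearson's r, across genes), so that the HO libraries varied more. The cardiomyocyte list (12 genes fixed for this work) was detected in every group, and its summed FPKM was 19874 or more in each E11.5H library and 5526 or less in each HO library.

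Hox genes were on in atria up to paralog number 5, and in ventricles only Hoxb2 was on. By the group mean, 8 members were on in atria (among them Hoxa2, Hoxa3, Hoxa4, Hoxa5, Hoxb2, Hoxc4 and Hoxc5), 1 in ventricles (Hoxb2), 2 in atrium-like parts (Hoxb2 and Hoxd8) and 1 in ventricle-like parts (Hoxb2). Counted at 1 TPM (transcripts scaled to a fixed total in each library) in place of 1 FPKM, 8, 2, 6 and 6 members were on in the same order, so the gap between atria and HOs depended on the unit. By library, 4, 8 and 8 members were on in atria 1 to 3, and 1 in each ventricle library. In HOs, 4, 3 and 1 were on in atrium-like parts 1 to 3, and 2, 3 and 1 in ventricle-like parts. Atria library 1 stood below the other atria, and no more than 4 members were on in any HO library.

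**Figure D1:**
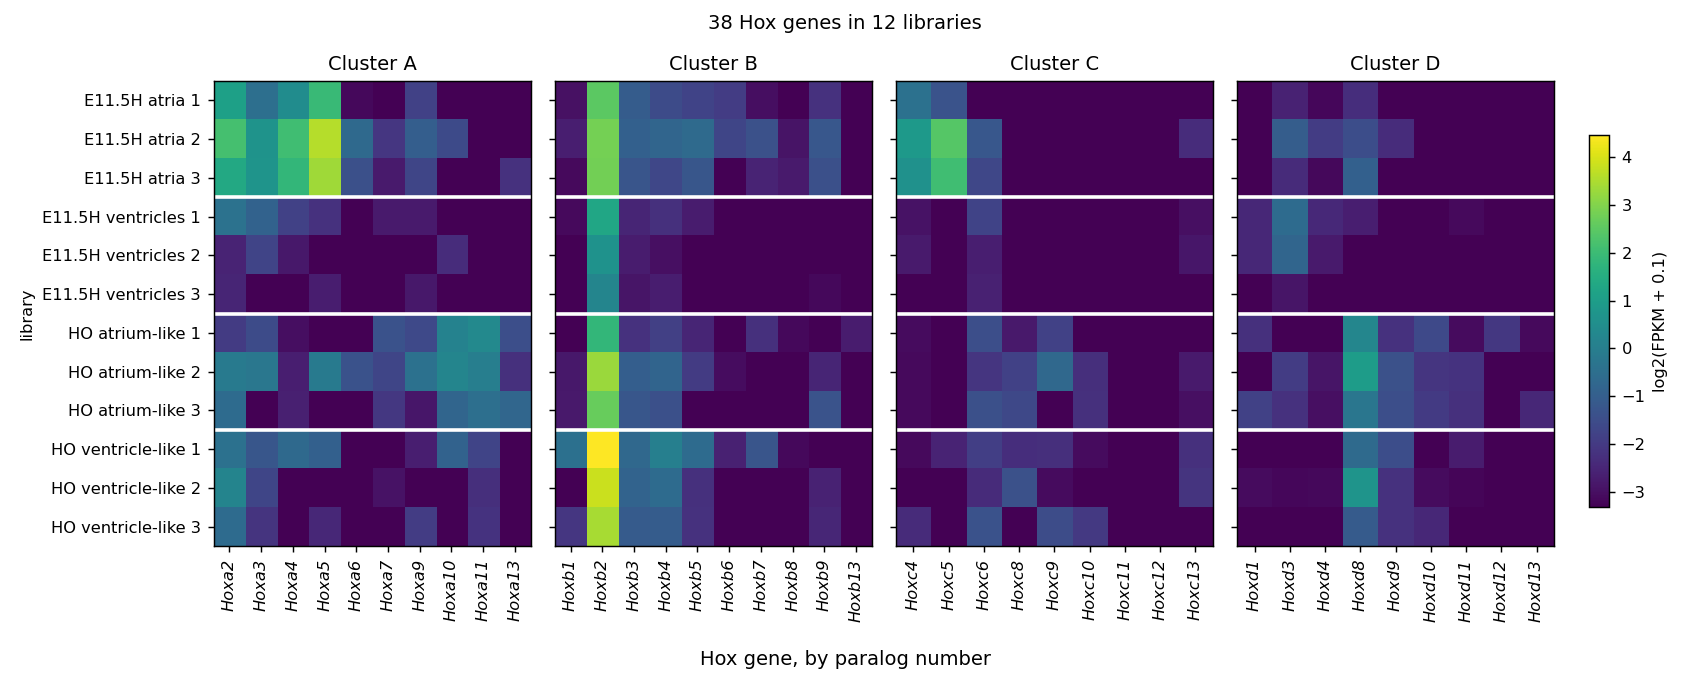
Each cell is the log2(FPKM + 0.1) of 1 of 38 Hox genes (columns, by cluster and paralog number) in 1 library (rows, 3 for each of 4 groups, separated by white lines). Atria are bright from Hoxa2 to Hoxa5 and at Hoxc4 and Hoxc5, and every library is bright at Hoxb2. Hoxa11 is brighter in each HO library than in any E11.5H library, and Hoxa10 and Hoxd8 are so in the atrium-like parts only.

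With detection at 10 fragments, 33 of the 39 members were found in at least 1 library, and Hoxb2 was among those found in all 12. The 6 that never reached 10 fragments were Hoxb8, Hoxb13, Hoxc10, Hoxc11, Hoxc12 and Hoxd13, and of these Hoxc11 and Hoxc12 had no fragment in any library. A library with 0 fragments allows up to 3, which is 0.0982 to 0.125 CPM (counts scaled to library size) at these depths, for counting error only. In the 6 E11.5H libraries, 10 members had no fragment, and 9 of them were posterior (Hoxa11, Hoxb13, Hoxc9, Hoxc10, Hoxc11, Hoxc12, Hoxd10, Hoxd12 and Hoxd13). The other was Hoxc8, a central gene of the thoracic trunk. Of these 10, Hoxa11, Hoxc8, Hoxc9, Hoxd10 and Hoxd12 reached 10 fragments in at least 1 HO library. Hoxa9 and Hoxb9 were the posterior members detected in all 3 atria, and Hoxa10 and Hoxa11 those detected in all 3 atrium-like parts.

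The total over all members separated the chambers of E11.5H. Summed FPKM over the 39 members was 16.3, 42.2 and 35.0 in atria 1 to 3, and 5.76, 3.25 and 1.71 in ventricles. In atrium-like parts it was 10.04, 20.6 and 12.3, and in ventricle-like parts 30.3, 19.6 and 14.7. Every atria library exceeded every ventricle library, whereas the HO parts overlapped. Central members carried 41.4% to 61.5% of the sum in atria, 6.72% to 15.2% in ventricles, 14.2% to 21.0% in atrium-like parts and 9.11% to 13.5% in their ventricle-like counterparts. Posterior members carried 1.72% to 2.76% in atria and 1.54% to 4.21% in ventricles, against 33.9%, 19.4% and 21.7% in atrium-like parts 1 to 3 and 4.13%, 2.34% and 6.55% in ventricle-like parts. The posterior share was thus higher in each atrium-like library than in any of the other 9. By cluster, A held 51.8% to 58.5% of the sum in atria, and B held 79.2% to 82.5% in ventricle-like parts, where Hoxb2 alone gave 72.5% to 73.1%. These shares are descriptions and were not tested. In such bulk samples, fewer cells of a type and less RNA per cell cannot be told apart.

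**Figure D2:**
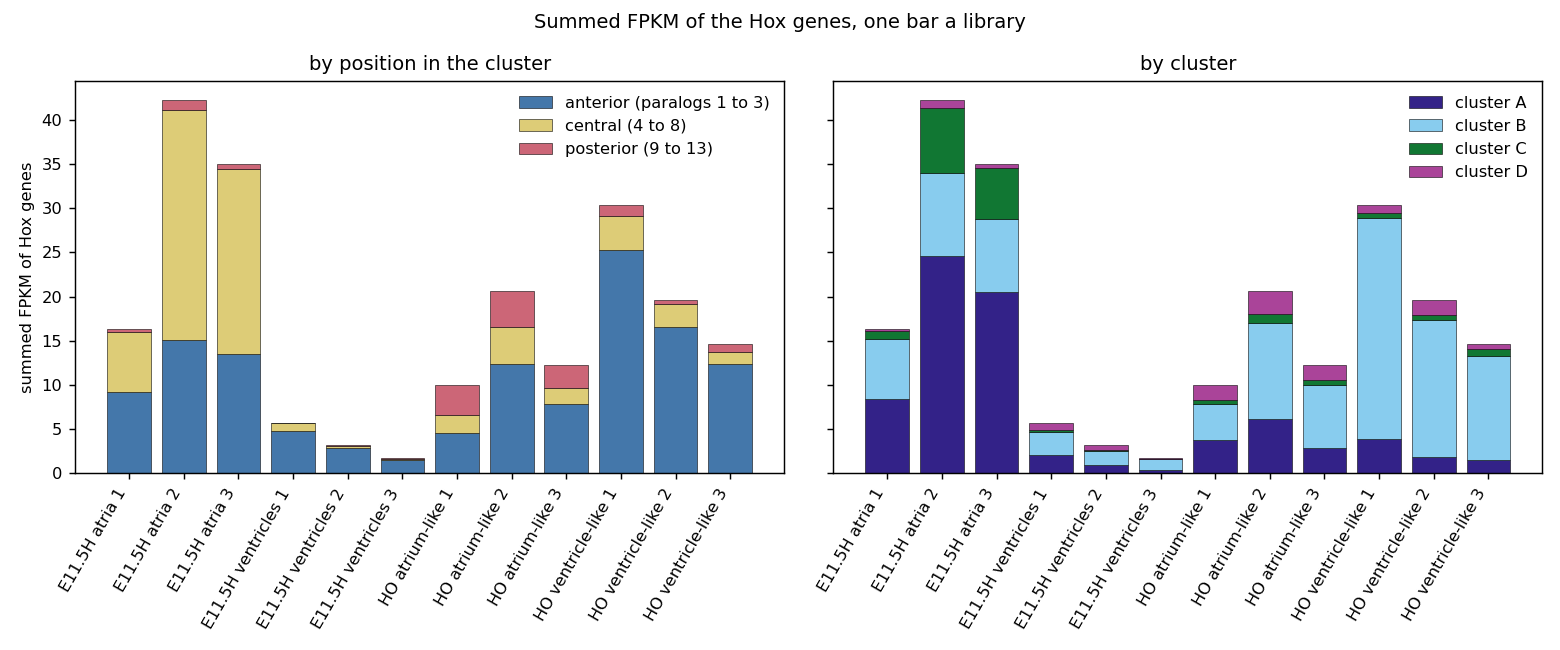
Bars give the summed FPKM of the 39 Hox genes in each of the 12 libraries, stacked by position in the cluster (left) and by cluster (right). Central genes of clusters A and C fill most of atria 2 and 3, cluster B fills most of each ventricle-like part, and the posterior segment is tallest in the atrium-like parts, at 2.67 to 4.003 FPKM.

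Atria were compared with ventricles of E11.5H to ask which members mark the embryonic chambers. Counts of all genes that passed a low-count filter entered the quasi-likelihood test of edgeR with Benjamini-Hochberg adjustment. A call needed an adjusted p below 0.05 and a log2 fold change beyond 1 in either direction. Of the 39 members, 15 passed the filter and 9 were called, all higher in atria, where 4.9% of the 14536 genes tested were called (2.92% higher in atria). The called members were Hoxa2, Hoxb2, Hoxb3, Hoxa4, Hoxc4, Hoxa5, Hoxb5, Hoxc5 and Hoxb9, so that 8 of the 9 had paralog numbers 2 to 5. The median log2 fold change of the 15 was 3.03, beside 0.01 over all genes tested, but a member high only in atria had to pass the filter through the atria. FPKM of the groups did not overlap for 12 of the 15, all higher in atria, beside 21.3% of all genes tested. When all 12 libraries shared 1 estimate of the spread, 30 genes and no Hox gene were called in this contrast. DESeq2 with the 6 libraries called 12 members, among 946 genes in all. Without atria library 2 the edgeR count was 5.

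Among the anterior members, Hoxa2, which patterns the second pharyngeal arch, had FPKM of 2.06, 4.38 and 2.48 in atria and 0.668, 0.0698 and 0.0763 in ventricles. Every atria library was higher, with ventricle library 1 the highest of its group. The log2 fold change was 3.38 ± 0.76 (SE), with an adjusted p of 0.0155 (edgeR), and the call was lost without atria library 2. Hoxb2, its paralog in cluster B, which acts in the hindbrain and the facial nerve, had FPKM of 5.59, 7.09 and 6.95 in atria and 2.34, 1.48 and 1.06 in ventricles. It was the member with the highest FPKM in every ventricle library, and atria again lay above ventricles without overlap. Its log2 fold change was 1.94 ± 0.29 (adjusted p = 0.00166, edgeR), and the call held without each library in turn. Hoxb3, a neighbour in the same cluster, lay at 0.378, 0.422 and 0.318 FPKM in atria and 0.0754, 0.0517 and 0.0370 in ventricles. All of its values were under 1 FPKM, the atria did not overlap the ventricles, and the log2 fold change was 2.70 ± 0.67 (adjusted p = 0.0238, edgeR). That call was lost when any 1 of the 6 libraries was left out.

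Other anterior members did not pass. Hoxa3, needed for the thymus and parathyroids, averaged 1.22 ± 0.517 FPKM (SD, n = 3) in atria and 0.216 ± 0.221 in ventricles, with an adjusted p of 0.121 (edgeR) and a row that spans Hoxa5. Hoxd3, a gene of the cervical vertebrae, had FPKM of 0.0682, 0.389 and 0.0955 in atria and 0.559, 0.480 and 0.0350 in ventricles. Here ventricles 1 and 2 were the highest libraries and ventricle library 3 the lowest, so the groups overlapped, and the log2 fold change was -1.02 ± 0.99 (adjusted p = 0.574, edgeR). Hoxb1 and Hoxd1 did not pass the filter, with 7 and 0 fragments in the 3 atria and 1 and 10 in the ventricles.

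At the central members, all 3 genes of paralog group 5 were called. Hoxa5, on chromosome 6 from 52201754 to 52204587 and known for its part in lung and rib patterning, had FPKM of 3.76, 12.1 and 10.2 in atria and 0.116, 0 and 0.0541 in ventricles. It was the member with the highest mean FPKM in atria (8.67 ± 4.36, SD, n = 3), and atria library 1 was the lowest of its group and still above each ventricle library. Its log2 fold change was 7.13 ± 0.67 (adjusted p = 9.41e-05, edgeR), and the call held without each library in turn. Hoxc5, on chromosome 15 from 103014008 to 103017429, had FPKM of 0.300, 5.16 and 4.13 in atria. No ventricle library held a fragment, against 870 in the 3 atria, so the level in atria was at least 92.8-fold higher at a floor of 3 counts for each ventricle library (adjusted p = 0.00407, edgeR). Hoxb5, which acts in neural crest of the gut, stayed low at 0.194, 0.548 and 0.325 FPKM in atria and 0.0493, 0 and 0 in ventricles. With 68 fragments in atria and 3 in ventricles, the ratio of CPM was 21.4 with an exact 95% interval of 7.01 to 106, for counting error only (adjusted p = 0.0433, edgeR). The call on Hoxb5 was lost in 5 of the 6 fits without 1 library, held without ventricle library 1 and was also lost without the low-count filter.

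In group 4, whose genes pattern the cervical vertebrae, Hoxa4 had FPKM of 1.29, 4.07 and 3.46 in atria and 0.183, 0.0405 and 0 in ventricles. The log2 fold change was 5.17 ± 0.87 (adjusted p = 0.00319, edgeR). Hoxc4 had FPKM of 0.641, 1.72 and 1.44 in atria and 0.0315, 0.0469 and 0 in ventricles, with a log2 fold change of 5.41 ± 0.87 (adjusted p = 0.00244, edgeR). For both genes atria library 1 was the lowest of the atria, no ventricle library reached it, and the call held without each library. Hoxb4, also known from blood stem cells, had FPKM of 0.242, 0.486 and 0.216 in atria and 0.109, 0.0241 and 0.0528 in ventricles. The groups did not overlap, yet the log2 fold change of 2.24 ± 0.83 had an adjusted p of 0.109 (edgeR).

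Beyond group 5 the levels in E11.5H were low. Hoxc6 overlapped between the chambers, with a mean of 0.183 ± 0.170 FPKM in atria and 0.106 ± 0.0779 in ventricles (adjusted p = 0.775, edgeR). Hoxa6, Hoxb6 and Hoxb7 did not pass the filter and had no fragment in ventricles, against 61, 18 and 16 in the 3 atria. Hoxb9, a gene of the thoracic ribs and the only posterior member called, had FPKM of 0.115, 0.330 and 0.274 in atria and 0, 0 and 0.0125 in ventricles. It held 65 fragments in atria and 1 in ventricles, a ratio of 61.3 with an exact 95% interval of 10.6 to 2456 (adjusted p = 0.0160, edgeR), and the call was lost in 4 of the 6 fits without 1 library. Hoxa9 was higher in each atria library than in any ventricle library, at a mean of 0.266 ± 0.121 FPKM against 0.0301 ± 0.0262, but its adjusted p was 0.0757 (edgeR).

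**Figure D3:**
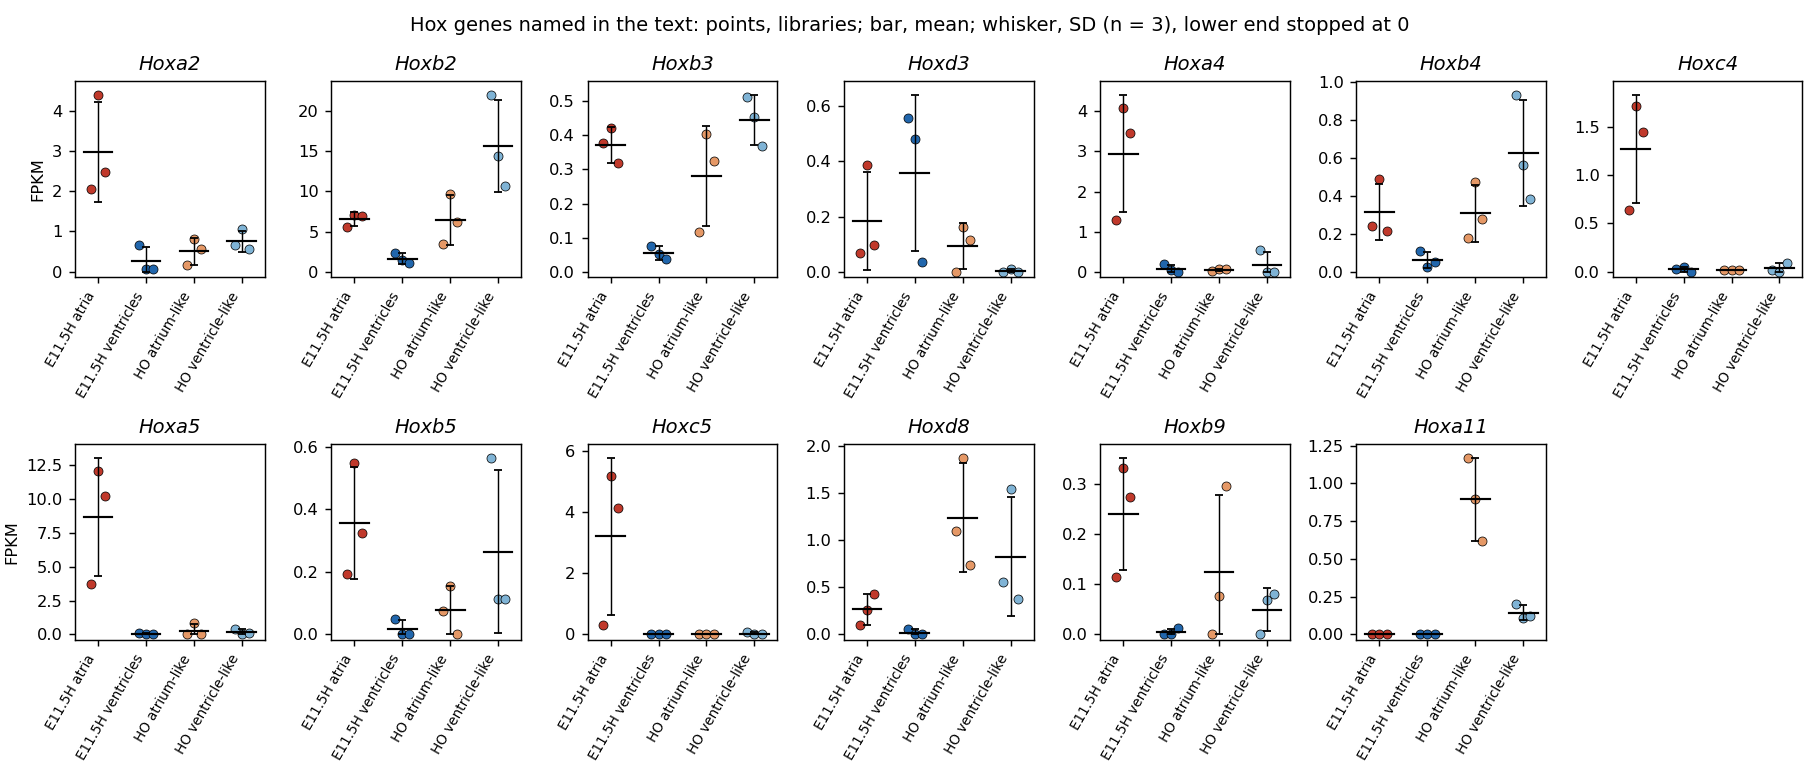
Points give the FPKM of each library for the 13 Hox genes described in every library, on a separate linear axis for each gene, with the mean (bar) and SD (whisker, n = 3, lower end stopped at 0). Hoxa5, Hoxc5, Hoxa4 and Hoxc4 are high in atria alone, Hoxb2 is highest in ventricle-like parts, and Hoxa11 has points above 0 in HOs alone.

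Lists of other cell types moved with the chamber. The list of sinus venosus and posterior second heart field, 8 genes, had a mean log2(CPM + 0.5) of 5.24 to 5.51 in atria and 1.86 to 2.5005 in ventricles. In it, 6 of the 8 genes were called higher in atria, beside 2.92% of all genes tested. Aldh1a2, which makes retinoic acid, was at 43.1, 69.6 and 57.0 FPKM in atria and 14.9, 16.9 and 18.7 in ventricles (log2 fold change 1.67 ± 0.16, adjusted p = 0.000101, edgeR). It also stands in the list of epicardium and proepicardium, of which 2 of 8 genes were called higher, beside the same 2.92%. Atria lay above ventricles in skeletal muscle markers as well (mean log2(CPM + 0.5) 0.66 to 2.17 against 0.19 to 0.26). The list of neural crest and cardiac ganglia also did (0.73 to 1.17 against 0.13 to 0.32), and none of its 4 genes tested was called by edgeR. Other lists lay lower in atria. Of the 8 erythroid genes, 4 were called lower, with a median log2 fold change of -1.94, and the summed FPKM of that list was 7305 to 14297 in atria and 11480, 18934 and 72047 in ventricles 1 to 3. Ventricle library 3, the highest in erythroid genes, was also the one with the lowest Hox sum, and 7 members were called without it. Of the neural tube list, 2 of the 3 genes tested were called lower in atria. Over all genes tested, 4.9% were called in either direction. Of the 8 lung and foregut markers, 3 to 6 were at 0 in each E11.5H library, and their summed FPKM was 3.86 to 4.87 in atria and 1.80 to 3.47 in ventricles. The part of these cells in the Hox differences was not tested. The 9 Hox cofactors of the Pbx, Meis and Pknox families, which bind DNA together with Hox proteins, were all tested and none was called by edgeR.

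Whether the HO parts repeat this chamber difference was asked with atrium-like against ventricle-like parts. Of the 39 members, 14 passed the filter and none was called by edgeR, where 0 of the 15703 genes tested were called (0%). At an unadjusted p under 0.05, 889 genes passed (5.66%), with Hoxa11 and Hoxb2 among them, and DESeq2 called 72 genes, of which Hoxa11 was a member. The FPKM of the parts did not overlap for 3 of the 14, beside 13.3% of all genes tested, and these were Hoxa10 and Hoxa11, higher in atrium-like parts, and Hoxb2, higher in ventricle-like parts. With no gene called in this fit, the absence of a Hox call does not show that the parts were alike.

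Hoxb2 had FPKM of 3.49, 9.70 and 6.19 in atrium-like parts and 22.0, 14.3 and 10.7 in ventricle-like parts. Each ventricle-like library lay above each atrium-like library, the reverse of the order in E11.5H, with a log2 fold change of -1.16 ± 0.42 (unadjusted p = 0.0306, adjusted p = 0.750, edgeR). The list of sinus venosus and posterior second heart field reversed as well, with a mean log2(CPM + 0.5) of 2.28, 3.17 and 3.02 in atrium-like parts and 4.47, 3.95 and 3.59 in ventricle-like parts. None of its 8 genes was called by edgeR between HO parts, and Foxf1 went the other way (log2 fold change 1.28 ± 0.50). In the interaction of chamber and tissue 5 were called, beside 0.152% of all genes tested. The cardiomyocyte list also lay lower in atrium-like parts, at 5.35, 6.83 and 7.30 against 7.99, 7.46 and 9.09 in ventricle-like parts. The part of either list in the Hoxb2 order was not tested. Hoxa5 had 0, 0.817 and 0 FPKM in atrium-like parts and 0.423, 0 and 0.0821 in ventricle-like parts, with 52 fragments in atrium-like library 2 and none in the other 2 of that part. Hoxc5 had no fragment in atrium-like parts and 0.0727, 0 and 0 FPKM in ventricle-like parts. Hoxa4 lay at 0.0228, 0.0578 and 0.0602 FPKM in atrium-like and 0.539, 0 and 0 in ventricle-like parts, and Hoxc4 at no more than 0.0933 FPKM in any HO library. The 4 genes of groups 4 and 5 that were on in atria therefore lay at 0.817 FPKM or lower in all 6 HO libraries. Hoxb5 had 0.0737, 0.156 and 0 FPKM in atrium-like and 0.564, 0.113 and 0.114 in ventricle-like parts, and Hoxb4 0.177, 0.471 and 0.275 against 0.928, 0.561 and 0.385. Ventricle-like library 1 was the highest HO library for both.

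Posterior members rose above the detection limit mostly in atrium-like parts. Hoxa11, a gene of the limb and the urogenital tract on chromosome 6 from 52242105 to 52245810, had FPKM of 1.17, 0.896 and 0.618 in atrium-like parts and 0.200, 0.107 and 0.121 in ventricle-like parts. The parts did not overlap, and the log2 fold change was 2.83 ± 0.72 (unadjusted p = 0.00709, adjusted p = 0.750, edgeR; 0.0171 with DESeq2). Hoxa10, its neighbour, had FPKM of 1.001, 1.07 and 0.479 in atrium-like parts and 0.447, 0 and 0 in ventricle-like parts, with a log2 fold change of 2.65 ± 1.97 (adjusted p = 0.757, edgeR). Hoxa13, which acts in the hindgut and the digits, did not pass the filter and had 10, 5 and 21 fragments in atrium-like parts and none in ventricle-like parts. The antisense row Hoxa11os, which overlaps Hoxa11, lay at 1.47, 0.714 and 0.701 FPKM in atrium-like parts and 0, 0 and 0.101 in ventricle-like parts. Without strand in the counting, reads of the overlap cannot be assigned between the 2 rows.

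Across cluster D, Hoxd8, a gene of the trunk at the centre of the cluster, was the member with the second highest mean in both HO parts, with FPKM of 1.10, 1.87 and 0.740 in atrium-like and 0.552, 1.55 and 0.371 in ventricle-like parts. Its parts overlapped, with library 2 the highest in each. Hoxd9 had 7 to 20 fragments in each atrium-like library and 8 to 18 in each ventricle-like one, and Hoxd10 8 to 12 and 0 to 5. In cluster C, Hoxc8, Hoxc9 and Hoxc10 had fragments in 3, 2 and 2 of the atrium-like and in 2, 3 and 2 of the ventricle-like libraries, at no more than 0.515 FPKM.

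The markers of hindgut and intestine, such as Cdx2 and Vil1, were near 0 in E11.5H (mean log2(CPM + 0.5) of the 8 genes between -0.70 and -0.30) and reached 6.25, 4.67 and 5.09 in atrium-like parts and 2.33, 0.55 and 4.59 in ventricle-like parts. Cdx2, a factor that activates posterior Hox genes in the gut and the tail bud, had FPKM of 61.3, 12.3 and 26.1 in atrium-like parts and 1.04, 0 and 18.6 in ventricle-like parts, and at most 0.0277 in E11.5H. The list thus moved with the posterior share of the Hox genes, which was highest in atrium-like library 1 and, among ventricle-like parts, in library 3. Summed posterior FPKM ranked otherwise, at 3.41, 4.003 and 2.67 in atrium-like parts and 1.25, 0.459 and 0.961 in ventricle-like parts. That sum was highest in atrium-like library 2 and, among ventricle-like parts, in library 1. The hepatocyte and visceral endoderm list was high in atrium-like libraries 1 and 3 and in ventricle-like library 3. It lay at 8.69, 4.40 and 8.39 in atrium-like parts and 3.46, 1.03 and 7.999 in ventricle-like parts. All 8 of its genes were called higher in atrium-like parts than in atria, beside 16% of all genes tested. The part of either list in the posterior Hox levels was not tested. Library 2 of each HO part held the most neural crest markers of its part (mean log2(CPM + 0.5) 3.46 and 3.34, against 0.14 to 1.97 in the other HO libraries). These 2 libraries were also the highest in neural tube markers (2.25 and 3.80) and in skeletal muscle markers (2.52 and 2.47, against 0.09 or less in the other HO libraries). Hoxa5 had 52 fragments in atrium-like library 2, none in ventricle-like library 2 and 26 in ventricle-like library 1.

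Atrium-like parts were next set against atria. The 19 members that passed the filter included 6 that were called, 4 lower and 2 higher in atrium-like parts, where 24.8% of the 15418 genes tested were called (8.81% lower and 16% higher). This comparison shares the atria libraries with the one between chambers. Hoxa4, Hoxc4 and Hoxc5 had to pass the filter through the atria, and Hoxa11 through the atrium-like parts. Lower were Hoxa2 (log2 fold change -2.44 ± 0.67, adjusted p = 0.0352, edgeR), Hoxa4 (-5.73 ± 0.77, adjusted p = 0.00491), Hoxc4 and Hoxc5. Hoxc4 held 253 fragments in atria and 3 in atrium-like parts, a ratio of 77.3 with an exact 95% interval of 26.2 to 377 (adjusted p = 0.00470, edgeR). Hoxc5 had 870 fragments in atria against none, at least 89.8-fold lower in the HO part (adjusted p = 0.0196, edgeR). Hoxa5 averaged 8.67 ± 4.36 FPKM in atria and 0.272 ± 0.472 in atrium-like parts, where its value came from library 2 alone. Its log2 fold change of -4.92 ± 1.65 did not pass (adjusted p = 0.0648, edgeR) and was called without atrium-like library 2. The calls on Hoxa4 and Hoxc4 held without each library in turn, that on Hoxc5 was lost without atria library 2 or 3, and that on Hoxa2 in 4 of the 6 such fits, those without any 1 of the atria or without atrium-like library 3.

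Higher in atrium-like parts were Hoxa11 and Hoxd8. Hoxa11 had 192 fragments in atrium-like parts and none in atria, which made it at least 23.5-fold higher (adjusted p = 0.00886, edgeR), and the call held without each library in turn. Hoxd8, at 0.105, 0.261 and 0.428 FPKM in atria, did not overlap the atrium-like values given above. Its log2 fold change was 2.37 ± 0.72 (adjusted p = 0.0484, edgeR), and that call was lost when any 1 library was left out. Hoxb2 averaged 6.54 ± 0.827 FPKM in atria and 6.46 ± 3.11 in atrium-like parts, a log2 fold change of 0.11 ± 0.35 (adjusted p = 0.832, edgeR). Hoxb3, with 0.118, 0.403 and 0.324 FPKM in atrium-like parts, and Hoxb4 also overlapped the atria, with log2 fold changes of -0.27 ± 0.60 and 0.11 ± 0.66. The called members lay in clusters A, C and D, and none of the members of cluster B was called by edgeR. Hoxb9, at 0, 0.0765 and 0.296 FPKM, and Hoxd3, at 0, 0.163 and 0.116, did not pass in this comparison.

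Ventricle-like parts against ventricles gave 7 members that passed the filter, and 4 of them were called, all higher in ventricle-like parts. In this fit 18.9% of the 15094 genes tested were called (11.6% higher). Hoxb3, Hoxb4 and Hoxd8 had to pass the filter through the ventricle-like parts. Hoxb2 averaged 15.7 ± 5.75 FPKM in ventricle-like parts and 1.63 ± 0.655 in ventricles, with a log2 fold change of 3.19 ± 0.43 (adjusted p = 0.00491, edgeR). The call on Hoxb2 held without each library in turn. Hoxb3, at 0.513, 0.453 and 0.368 FPKM in ventricle-like parts, was higher by 2.93 ± 0.58 on the log2 scale (adjusted p = 0.0155, edgeR). Hoxb4 was higher by 3.22 ± 0.79 (adjusted p = 0.0282, edgeR). These 3 neighbours in cluster B each lay above every ventricle library in all 3 ventricle-like libraries. The share of all genes tested that did so is not given here. Hoxd8, with 0.0578, 0 and 0 FPKM in ventricles, was higher by 5.19 ± 1.42 (adjusted p = 0.0389, edgeR), from 4 fragments in ventricles and 174 in ventricle-like parts. The calls on Hoxb3, Hoxb4 and Hoxd8 were each lost without any 1 of the ventricle libraries, and the count of called members ranged from 1 to 5 over the fits without 1 library.

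Members that were not called in this comparison included Hoxa2, at 0.654, 1.05 and 0.556 FPKM in ventricle-like parts, with a log2 fold change of 1.39 ± 0.999. Hoxa11, with 15, 8 and 9 fragments in ventricle-like parts and none in ventricles, did not pass the filter and was at least 3.49-fold higher. Hoxd3 went the other way with 100 fragments in ventricles and 1 in ventricle-like parts, and it was not tested. Hoxb9 had 0, 0.0680 and 0.0800 FPKM in ventricle-like parts.

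**Figure D4:**
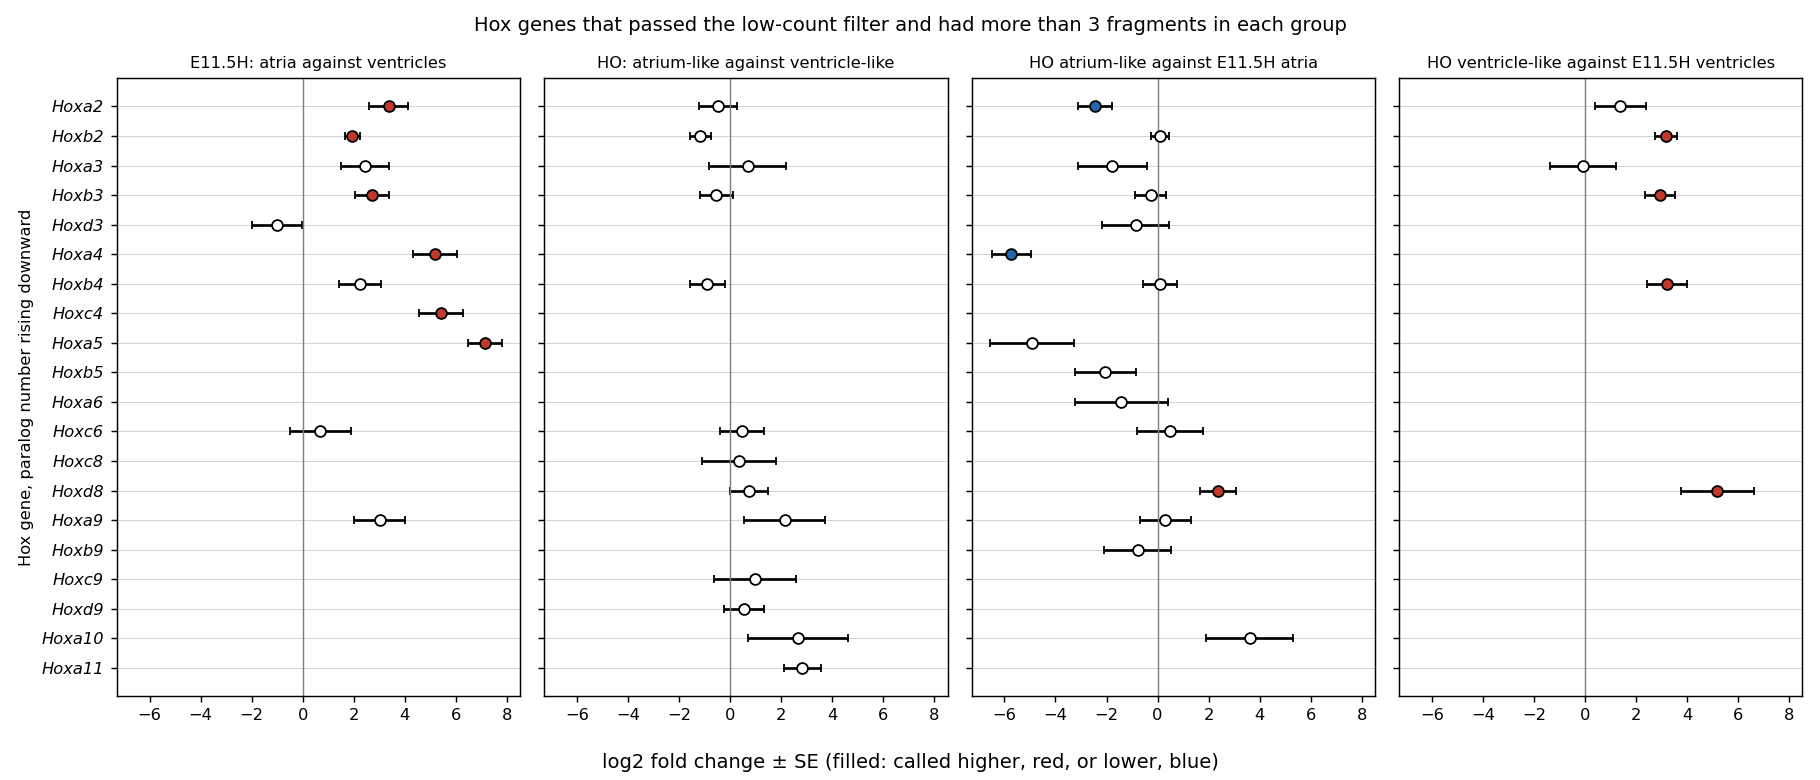
Points give log2 fold changes with SE (edgeR, 3 libraries against 3) of the Hox genes reported here that passed the filter with more than 3 fragments in each group, in 4 comparisons, with called genes filled in red (higher) or blue (lower). In E11.5H all called points lie to the right, and between HO parts none is filled. In atrium-like parts against atria, Hoxa2 and Hoxa4 (at -5.73) are filled in blue. Hoxc4, with 3 fragments in atrium-like parts, and Hoxc5, with none, were called lower there and are left out of the plot.

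The interaction of chamber and tissue asked whether the atrial minus ventricular difference itself differed between HOs and E11.5H. Of 22 members that passed the filter none was called by edgeR, where 0.152% of the 16494 genes tested were called, and 10 of the 22 had an unadjusted p under 0.05, beside 11.7% of all genes tested. DESeq2 called 6 members, among 461 genes in all. Hoxb2 had the lowest unadjusted p among the members (0.000190, adjusted p = 0.0816, edgeR), with an interaction of -3.09 ± 0.55 on the log2 scale. It was called without atrium-like library 2 or without ventricle-like library 3. Hoxb3 had an interaction of -3.22 ± 0.82 (adjusted p = 0.213, edgeR) and Hoxc4 one of -6.37 ± 1.85 (adjusted p = 0.259, edgeR). For Hoxa5 it was -6.42 ± 2.60 (adjusted p = 0.390, edgeR).

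Genes that act on Hox clusters were taken from a list of 21. Between the chambers of E11.5H 1 of 14 tested was called higher in atria (Aldh1a2), beside 2.92% of all genes tested, and 1 lower, Cyp26b1, which breaks down retinoic acid (log2 fold change -1.93 ± 0.41, adjusted p = 0.0119, edgeR). In atrium-like parts against atria, 7 of 19 were called higher (among them Cdx1, Cdx2, Cyp26a1, Aldh1a1 and Rarg) and 2 lower (Aldh1a2 and Ezh2, the methylase of the Polycomb complex), beside 16% higher and 8.81% lower of all genes tested. Ezh2 was also called lower in ventricle-like parts against ventricles (-1.25 ± 0.16, adjusted p = 0.00468, edgeR), where 1 of 16 was called higher (Egr2), beside 11.6% of all genes tested. Cyp26a1, another enzyme that breaks down retinoic acid, had FPKM of 1.65, 81.3 and 38.1 in atrium-like parts and at most 0.368 in E11.5H. Beside the clusters, Evx1, next to Hoxa13, had 0.363, 0.243 and 0.323 FPKM in atria and no fragment in ventricles, and was called in that comparison (adjusted p = 0.00621, edgeR).

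Promoters were looked at as sequence only, in windows of 250 bases before to 50 after the start site from RefSeq (GRCm38.p6), which gave 24 windows for 22 of the 39 members. The letters TGATNNAT, the core of sites that Hox and Pbx proteins bind together, were found on either strand in 4 of the 24 windows (Hoxa2, Hoxb1, Hoxb8 and Hoxd11), beside 8.85% of all 32851 windows. TATAAA was in 4 of the 24, beside 13.6% of all, and TTTACGA, a core of sites of caudal-type and posterior Hox proteins, in 2 (Hoxb8 and Hoxd11), beside 0.597%. CpG dinucleotides numbered 14.5 per Hox window in the median and 7.0 over all windows. The window of Hoxa2 is printed because this member was called higher in atria and holds the first of these motifs, with capitals for the match (on the opposite strand, starting at position 140 of the window).
Hoxa2 promoter, chr6:52164782-52165081, minus strand: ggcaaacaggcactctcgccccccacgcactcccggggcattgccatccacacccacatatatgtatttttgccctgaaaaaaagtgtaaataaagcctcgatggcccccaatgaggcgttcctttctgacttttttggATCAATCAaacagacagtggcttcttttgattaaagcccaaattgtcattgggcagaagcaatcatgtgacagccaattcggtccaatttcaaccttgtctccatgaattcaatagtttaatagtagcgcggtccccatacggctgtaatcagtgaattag
A match is a description of letters, and no binding was measured here.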

How the data were processed

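RNA from 12 libraries, 3 in each of 4 groups set by the labels, was analysed. Per the labels, total RNA was taken from dissected parts with a Qiagen AllPrep kit and libraries were made with an Illumina TruSeq kit, whereas the methods name the Takara company for libraries and sequencing. The authors mapped reads to GRCm38/mm10 with STAR (per the labels and the methods). The STAR version, the annotation, the counting tool and its use of strand are not given in the sources used here. The authors deposited expected counts, as fragments per gene without normalization (23.8% of the values were not whole), and FPKM values. Deposited FPKM scales each expected count to transcript width and to a library total, and carries no correction for composition.

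Expected counts were rounded and tested with edgeR 4.0.16 in R 4.3.3 (glmQLFit and glmQLFTest, TMM, filterByExpr with a minimum count of 10). P-values were Benjamini-Hochberg adjusted over all genes tested, and only the 2 groups compared entered each fit, apart from the interaction, which used all 12. P-values measure the spread between these samples, which may in part be technical, since no label ties a replicate to an animal or culture. DESeq2 1.42.0, other normalizations and filters, a fit of all 12 libraries, the replicate number as a block and fits without 1 library were the alternatives. The script was tested on simulated data. Python 3.11.15 (numpy 2.4.6, pandas 2.3.3, matplotlib 3.10.9) served for summaries, sequences and plots.

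The members and lists were chosen with earlier results of these data known. By rule, values in every library were given for members called in any comparison or among the 3 highest mean FPKM of a group, which gave 14 members, of which 1 is not reported here. Hoxa3, Hoxa9, Hoxa10, Hoxa13, Hoxc6 and other members are described as well and were chosen after their values were seen. A fold against a group without fragments is a bound at 3 counts for each library, and with 1 to 3 fragments it is a ratio of summed CPM with an exact 95% interval, which covers counting error only.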

Additional observations from a re-analysis of the deposited data

Results flagged for a closer look

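The chamber difference of Hoxb2 ran in opposite directions in E11.5H and in HOs, with each atria library above each ventricle library and each atrium-like library below each ventricle-like library. The interaction was -3.09 on the log2 scale, with an SE of 0.55, an unadjusted p of 0.000190 and an adjusted p of 0.0816 (edgeR's quasi-likelihood test with Benjamini-Hochberg adjustment), and with DESeq2 it was -3.07 with an adjusted p of 1.34e-05. Over its alternatives the adjusted p ranged from 1.34e-05 to 0.283.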

How the results depend on the processing

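Counts of called Hox genes depended on the test and on which libraries entered the fit. Between atria and ventricles (9 called) the count was 0 in the fit of all 12 libraries, where 30 genes in all were called, and ranged from 5 (without atria library 2) to 9 without 1 library. Between HO parts (0 called by edgeR) it was 1 with DESeq2, Hoxa11, and 0 in each fit without 1 library. For atrium-like parts against atria (6 called) the fits without 1 library gave 3 (without atria library 3) to 7. For ventricle-like parts against ventricles (4 called) it was 7 with DESeq2 and 7 in the fit of all 12 libraries, and 1 (without ventricle library 1 or 2) to 5 without 1 library. The interaction (0 called by edgeR) gave 6 with DESeq2 and 0 to 1 without 1 library, with 1 without atrium-like library 2 or ventricle-like library 3. The cause of these changes was not tested. Over all genes, DESeq2 called 72 between HO parts, 4208 for ventricle-like parts against ventricles and 461 in the interaction.

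With the replicate number as a block, 7, 0, 3, 1 and 0 members were called in these 5 comparisons, in the same order. The counts over all genes in these fits are not given here, so a change particular to the Hox genes cannot be read from them. The labels number the replicates 1 to 3 in each group and do not say that a number marks a shared heart or culture. Deviations from the group means correlated between same-numbered parts at 0.0071, 0.021 and 0.043 in E11.5H and at 0.017, 0.59 and 0.36 in HOs. The E11.5H replicates differed little, so these low values cannot tell whether same-numbered parts came from the same hearts. In each tissue, not every library correlated best with its own number.

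The number of members on by the group mean depended on the limit. In atria (8) it was 5 at an FPKM of at least 2 and 16 for at least 10 fragments in the mean. In ventricles (1) it was 0 at an FPKM of at least 2, 5 for 10 fragments and 2 at 1 TPM. In atrium-like parts (2) it was 5 at an FPKM of at least 0.5, 1 at 2, 19 for 10 fragments and 6 at 1 TPM, and in ventricle-like parts (1) it was 5 at 0.5, 14 for 10 fragments and 6 at 1 TPM. Without 1 library it ranged from 7 to 8, from 1 to 1, from 1 (without atrium-like library 2) to 4 (without library 3) and from 1 to 2 (2 without ventricle-like library 3), in the same order.

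Directions of single genes that turned were all of uncalled differences. Hoxb4 in atrium-like parts against atria was -9.18e-05 on the log2 scale with library totals only, and ranged from -0.23 (without atrium-like library 2) to 0.53 (without atria library 2), with -0.05 and -0.11 without atria library 1 and 3. In the same comparison Hoxd3 ranged from -1.43 (without atrium-like library 2) to 0.25 (without atria library 2), Hoxb3 from -0.53 (without atrium-like library 2) to 0.026 (without library 1) and Hoxb2 from -0.20 (without atrium-like library 2) to 0.33 (without library 1). Library totals only shifted the median of all genes by -0.15 between HO parts, -0.13 for atrium-like parts against atria, 0.14 for ventricle-like parts against ventricles and -0.25 in the interaction. Of the other alternatives for named genes, 607 kept direction and side of the threshold, 64 lost the call and 9 gained it.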

Other observations

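Noncoding rows of the clusters were described beside the members. Hotairm1, a noncoding RNA of cluster A, had FPKM of 0.466, 0.871 and 0.152 in atria and 0, 0 and 0.156 in ventricles, and 1.05, 0.380 and 0.844 in atrium-like and 1.19, 0.857 and 0.200 in ventricle-like parts. Hoxb3os, antisense in cluster B, was above 0 in all 12 libraries, from 0.139 to 1.55 FPKM. Hoxaas3, which overlaps Hoxa5 on the opposite strand, had 0.0685, 0.537 and 1.15 FPKM in atria and no fragment in ventricles or atrium-like parts, and without strand in the counting its fragments cannot be told apart from those of Hoxa5. Cdx4 and Evx2 were listed at 0 in every library.

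The HO libraries also differed among themselves in members outside the calls. Hoxb1, a gene of the fourth rhombomere and of heart progenitors, had 43, 0 and 9 fragments in ventricle-like parts 1 to 3 and at most 4 in any other library. Ventricle-like library 1 was the highest HO library for members including Hoxa4, Hoxb1, Hoxb2, Hoxb3, Hoxb4, Hoxb5, Hoxb6, Hoxb7 and Hoxc5.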
